A study of Saccharomyces cerevisiae with 18 samples.

Results

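The 42 genes described here encode the transcription machinery of RNA polymerases I and III (pol I and pol III) in the yeast Saccharomyces cerevisiae. They are 7 subunits of pol I, 10 subunits of pol III, 2 subunits that both enzymes share, 5 subunits that pol I, pol II and pol III share, 8 initiation factors of pol I, the 6 subunits of TFIIIC, the 3 parts of TFIIIB, and MAF1. The genes were taken by symbol from the known make-up of these complexes. All 42 were found among the 5449 yeast genes that the array reads. Each had 1 probe set, each lay above the background limit on all 18 arrays, and all 42 were among the 5363 genes tested, so none was lost to the filter on dim signals.

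Pol I copies the ribosomal DNA into the precursor of the large ribosomal RNAs. Pol III makes the 5S ribosomal RNA, the transfer RNAs and other small RNAs, and together the enzymes account for most of the RNA that a growing yeast cell makes. Their activity is known to follow nutrient supply and growth, and it is known to fall in starvation and under stress. RRN3 carries pol I to the promoter, where core factor and the upstream activating factor are bound. TFIIIC binds the promoters inside transfer RNA genes and places TFIIIB, which recruits pol III, and MAF1 binds pol III and represses it.

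Total RNA from a haploid labelled Mat alpha, a haploid labelled Mat a and a diploid, each described by the submitters as ethanol tolerant, was hybridised to 18 Affymetrix yeast arrays. Each strain grew in fermentors in YPD, a rich glucose medium, that held 0%, 3% or 7% ethanol (v/v), and cells were taken in mid-exponential phase. Each of the 9 groups has 2 samples, the 0% cultures are the controls, and no allele, deletion or drug is named in the labels. Nothing says whether the samples of a group came from separate cultures, so the p-values measure only the spread between these samples, which may be technical. The small number of arrays sets the precision, with a within-group SD of 0.116 to 0.158 in log2 units.

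The haploid labelled Mat a carried transcripts of an alpha cell. MF(ALPHA)1, the gene of the alpha pheromone, had a mean signal of 4665 in it, 4391 in the haploid labelled Mat alpha and 14.8 in the diploid. HMRA1, a probe set for the a1 regulator, exceeded the limit on none of the haploid arrays (0 of 6 in each strain) and on 6 of 6 diploid arrays. The a-cell genes MFA1, MFA2, STE2, STE6, AGA2 and BAR1 were above the limit on 6 of 6 arrays of the haploid labelled Mat a, but dim, with mean signals of 10.0 to 30.8. MFA1, an a pheromone gene, had a mean of 18.8 there, 8.63 in the haploid labelled Mat alpha and 7.69 in the diploid, and AGA2, an a-agglutinin gene, had 15.3, 5.21 and 4.49. In the same order of strains, MFA2 had 30.8, 21.5 and 19.9, and BAR1 had 10.0, 7.54 and 8.11. STE2 had 26.2, 25.4 and 22.4, and STE6, highest in the diploid, had 20.9, 23.9 and 27.5. MFA2, STE2 and STE6 were above the limit on 6 of 6 arrays in the other strains too. The haploids are therefore called strain a and strain alpha below as labels only.

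Signals below are scaled to the same trimmed mean on every array. Differences are log2 differences of the scaled signal plus 16, given ± SE of the fit, and the folds beside them are on that scale too, which understates the change of dim genes. A gene is said to have risen or fallen, or to be higher or lower, where its adjusted p was under 0.05 (limma, Benjamini-Hochberg over all genes tested). Where array values are listed, the 2 arrays at 0% come first, then those at 3%, then those at 7%. In RNA from whole cultures, a change in the level per cell and a change in the share of cells that hold the transcript cannot be told apart.

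At 7% ethanol most of the machinery stood above its 0% level. In the mean of the 3 strains 34 of the 42 genes rose, TFC3 and MAF1 fell, and RPC82, RRN6, RRN5, TFC4, TFC7 and BDP1 did not pass the threshold. The background was high, since 48.3% of all genes tested rose in this comparison and 22.3% fell. The median difference was 0.61 over the 42 genes and 0.13 over all genes tested. On the scale used 8 of the 42 at least doubled, as did 337 of the 5363 genes tested. The catalytic enzymes and the factors differed in their counts: 23 of the 24 subunit genes rose, against 11 of the 17 genes of initiation factors. At 3% ethanol 29 genes rose and 3 fell, namely RRN3, TFC4 and MAF1, with a median of 0.28 against 0.062 over all genes and a background of 32% higher and 17.3% lower. The comparisons of one strain share its 0% arrays, and those between levels share arrays too, so their counts are not independent.

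How the arrays were scaled moved part of these counts. The median of all genes tested at 7% was 0.13 as scaled here, -5.8e-04 after quantile normalization, -0.059 after median centring and 0.039 with no scaling, and the split of all genes went from 2592 higher and 1196 lower to 1866 and 1845, 1648 and 2168, and 1869 and 1369. The pol I subunits, the shared subunits and the pol III subunits kept their counts at 7% in the mean of the strains under all 4 settings. The 42 genes together gave 30 higher and 7 lower after quantile normalization, 33 and 5 after median centring, and 33 and 2 with no scaling. At 3% they gave 21 and 6, 26 and 3, and 25 and 1 in the same order, and all genes gave 1238 and 1208, 1162 and 1324, and 1168 and 644 in place of 1716 and 929.

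**Figure D1:**
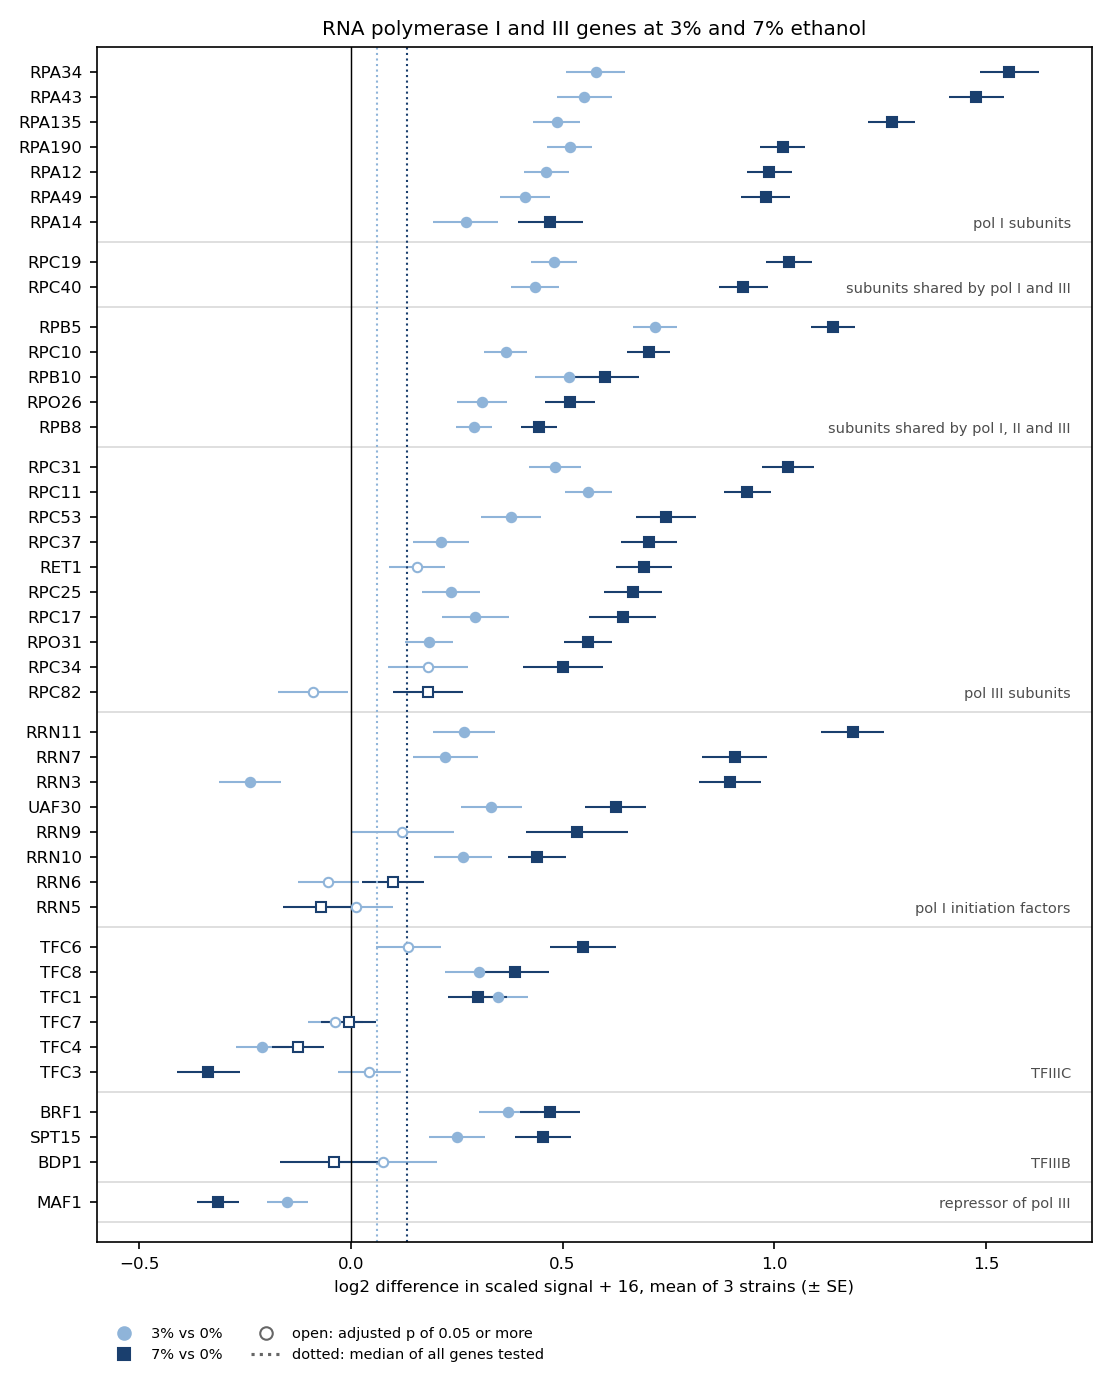
Log2 difference of each of the 42 genes at 3% (circles) and 7% (squares) against 0% ethanol in the mean of the 3 strains, grouped by complex, with bars for ± SE. Filled symbols passed the threshold. The 7% values run from -0.34 for TFC3 to 1.55 for RPA34, and 6 of the 7 pol I subunits lie at 0.98 or above at 7%, to the right of the dotted median of all genes.

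All 7 pol I subunits rose at 7% in the mean of the strains, with a median of 1.02, and all 7 had also risen at 3%, with a median of 0.49. Of all genes tested 48.3% rose at 7% and 32% at 3%, with medians of 0.13 and 0.062. RPA190 and RPA135 are the large subunits that together form the active centre. RPA190 read 448 and 451, 702 and 653, and 784 and 781 in strain alpha and 219 and 196, 386 and 437, and 583 and 552 in strain a. In the diploid RPA190 read 434 and 371, 426 and 400.1, and 745 and 772. Every 7% array was above every 0% array of the same strain, and the 7% arrays of all 3 strains lay above the 0% arrays of all 3. The difference at 7% was 1.02 ± 0.053, or 2.03-fold (adjusted p = 5.61e-13).

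RPA135 read 413 and 385, 755 and 654, and 909 and 828 in strain alpha and 162 and 189.5, 334 and 344, and 628 and 558 in strain a. Its diploid arrays read 379 and 370.0, 328 and 308, and 824 and 787. Both haploids were above their 0% level already at 3%, while the diploid arrays at 3% lay below those at 0% without passing the threshold (-0.23 ± 0.096, adjusted p = 0.105). At 7% against 0% the difference in the mean of the strains was 1.28 ± 0.055 (adjusted p = 2.96e-14).

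RPA34 forms a heterodimer with RPA49 that helps pol I start and elongate, and at 7% it had the largest rise of the 42 genes in the mean of the strains on the scale used. It read 326 and 297, 500.4 and 459, and 737 and 639 in strain alpha and 117 and 143, 242 and 273, and 417 and 525 in strain a. The diploid gave 191 and 196, 209 and 252, and 750.0 and 705, so that its 7% arrays were far above all its others. The rise was 1.55 ± 0.070, or 2.94-fold (adjusted p = 5.22e-14), and that of RPA49 was 0.98 ± 0.058 (adjusted p = 4.98e-12). With 1 added before the logarithm the rise of RPA43 was larger, 1.84 against 1.63, and in the diploid RPA43 rose by 1.85 ± 0.11 and RPA34 by 1.83 ± 0.12.

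RPA43 and RPA14 make up the stalk of pol I, through which RRN3 binds the enzyme. Their probe sets did not move alike. RPA43 read 78.7 and 74.8, 133 and 128, and 169 and 176 in strain alpha and 26.6 and 19.1, 48.1 and 53.3, and 94.3 and 102 in strain a. In the diploid it read 31.1 and 28.3, 35.4 and 38.4, and 147 and 149.9, and the 7% arrays did not overlap the others in any strain. Its rise of 1.48 ± 0.065 (adjusted p = 3.95e-14) depends on the constant added before the logarithm, since the value was 1.84 with 1 added and 0.94 with 64. RPA43 lies next to RPA190 in the gene order of the RefSeq annotation, the only neighbours among the 42.

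RPA14 had the smallest rise of the pol I subunits. It read 546 and 425, 819.8 and 720.2, and 754 and 711 in strain alpha and 495 and 669, 554 and 660.2, and 714 and 719 in strain a. The diploid read 499.7 and 492, 469 and 594, and 699 and 734. In strain a the arrays at 0% and 3% overlapped and the difference at 7% was 0.31 ± 0.13 (adjusted p = 0.0508), whereas the mean of the strains gave 0.47 ± 0.077 (adjusted p = 1.7e-05). RPA12, which serves RNA cleavage and termination, rose by 0.99 ± 0.053 in the mean of the strains (adjusted p = 8.18e-13).

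**Figure D2:**
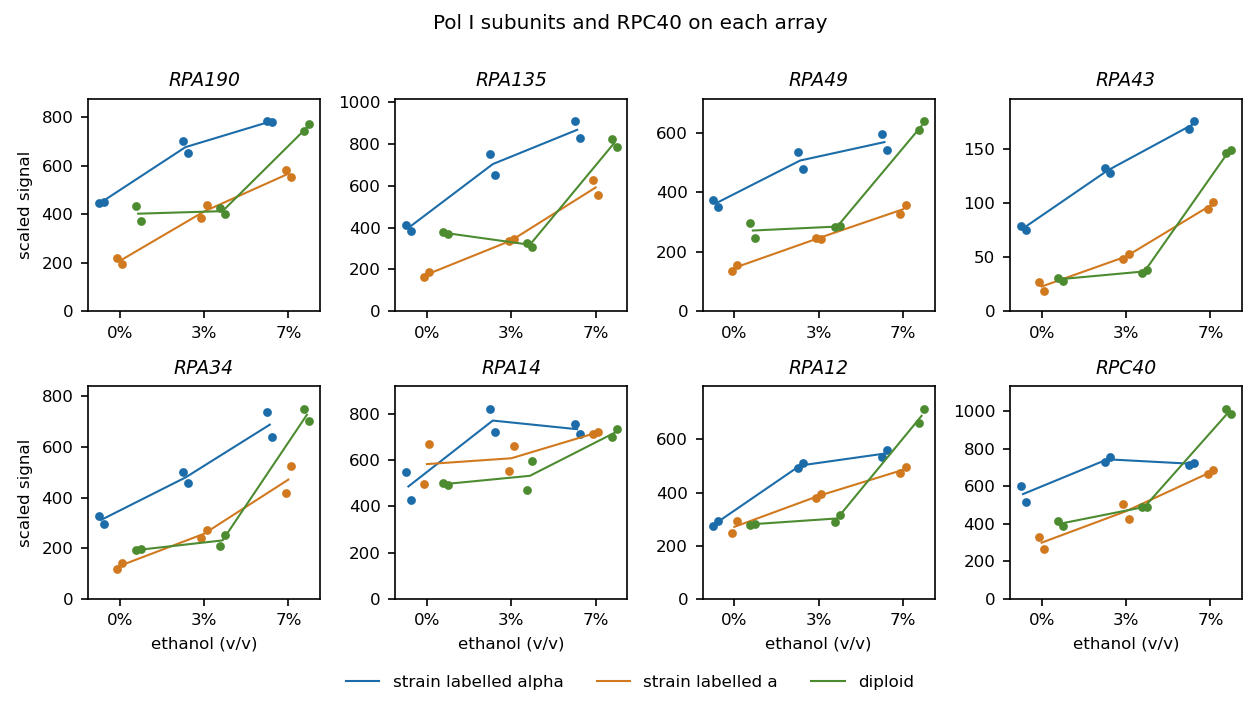
Scaled signal of the 7 pol I subunit genes and RPC40 on each array (points) against ethanol level, with lines through the group means. In the diploid the 0% and 3% arrays lie close together and the 7% arrays stand above them, while the haploid 3% arrays lie above the 0% arrays in every panel except RPA14 in strain a, where they overlap.

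The subunits that pol I shares with other polymerases rose as well, 7 of 7 at 7% and 7 of 7 at 3% in the mean of the strains. The shares of all genes tested that rose were 48.3% and 32%. RPC40 and RPC19 form the assembly platform of pol I and pol III. RPC40 read 599 and 517, 730.4 and 756, and 714 and 724 in strain alpha and 331 and 268, 506 and 428, and 663 and 686 in strain a. The diploid arrays were 415 and 386, 488 and 492, and 1011 and 982, and here 7% was well above 3%, while in strain alpha the 7% arrays lay just below the 3% arrays. The rise at 7% was 0.93 ± 0.058 (adjusted p = 1.07e-11).

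RPC19 read 415 and 364, 619 and 581, and 709 and 726 in strain alpha and 302 and 339, 537 and 482, and 656 and 591 in strain a, and in the diploid 268 and 297, 322 and 327, and 734 and 722. The 7% arrays were above the 0% arrays in each strain, and the rise was 1.03 ± 0.054 (adjusted p = 5.38e-13). RPB5 had the largest rise of the 5 subunits common to all 3 polymerases and, as scaled here, the largest rise of all 42 genes at 3%, both in the mean of the strains. It read 376 and 415, 591 and 541, and 674 and 684 in strain alpha and 209 and 189, 456 and 464, and 507 and 556 in strain a. RPB5 read 250.0 and 242, 379.8 and 334, and 641 and 626 in the diploid. RPB5 was 1 of the 4 genes that rose in the diploid at 3% (0.51 ± 0.091, adjusted p = 0.000529), and in the mean of the strains it rose by 0.72 ± 0.052 at 3% and 1.14 ± 0.052 at 7% (adjusted p = 7.08e-14).

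RPB8 had the smallest rise of the shared subunits. Its strain alpha arrays read 1756 and 1798, 2358 and 2339.9, and 2304 and 2438, those of strain a 1430.2 and 1633, 1849 and 1858, and 1972 and 1947 and those of the diploid 1535 and 1708, 1785 and 1943, and 2346 and 2457. The groups at 0% and 7% did not overlap within any strain, and the rise was 0.44 ± 0.043 (adjusted p = 1.02e-08). RPO26, a subunit needed for the stability of each enzyme, read 717 and 688, 979 and 922, and 877 and 907 in strain alpha and 639 and 696, 968 and 801, and 858 and 899.5 in strain a. In the diploid RPO26 read 565 and 699, 638 and 725, and 1081 and 1175, with the 7% arrays above all others. RPO26 rose by 0.52 ± 0.059, RPB10 by 0.60 ± 0.079 and RPC10 by 0.70 ± 0.051. RPB10 was higher at 3% than at 0% but not past the threshold between 3% and 7% (0.086 ± 0.079, adjusted p = 0.368).

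The 7 subunits that belong to pol II alone give a comparison within the same family. At 7% RPB2, RPB3 and RPB9 rose, RPB7 and RPB11 fell and the largest subunit gene RPO21 gave -0.067 ± 0.095 (adjusted p = 0.541), with a median of -0.026. RPB3 rose by 0.58 ± 0.054 and RPB7, a stalk subunit of pol II, gave -0.26 ± 0.048 (adjusted p = 5.35e-05). The shares were 42.9% higher and 28.6% lower, near the 48.3% and 22.3% of all genes tested, whose median was 0.13. These pol II counts became 2 higher and 2 lower after quantile normalization. After median centring they were 1 and 4, and with no scaling 1 and 2. RPB2 and RPB9 were named after their values were seen. No test compared the lists with each other.

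Pol III subunits rose in 9 of 10 cases at 7%, with a median of 0.68, and in 7 of 10 cases at 3%, with a median of 0.22. The background was 48.3% of all genes tested at 7% and 32% at 3%, with medians of 0.13 and 0.062. At 3% the count was 3 higher and 1 lower after quantile normalization, 5 higher after median centring and 4 higher with no scaling. The counts of all genes at 3% under these settings were lower as well and are given above. RPO31 and RET1 are the large subunits that form the active centre of pol III. RPO31 read 234 and 245, 347 and 319.9, and 344 and 379 in strain alpha and 167 and 164, 217 and 231, and 306 and 268 in strain a. In the diploid RPO31 read 219.9 and 229, 185 and 173, and 316 and 279, so both 3% arrays lay below both 0% arrays. RPO31 fell in the diploid at 3% (-0.30 ± 0.098, adjusted p = 0.0337) and rose there at 7% (0.38 ± 0.098, adjusted p = 0.00249). With no scaling 1 gene in place of 3 fell in the diploid at 3%, and this count also depends on single arrays, as given below. In the mean of the strains the rise of RPO31 at 7% was 0.56 ± 0.057 (adjusted p = 2.2e-08).

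RET1 read 189 and 173, 270.5 and 206, and 279 and 273 in strain alpha and 124 and 141, 181 and 171, and 267 and 231 in strain a, and 177 and 168, 139 and 144, and 274 and 295 in the diploid. As for RPO31, the 7% arrays lay above and the diploid 3% arrays below the 0% arrays, but the lower level of the diploid at 3% did not pass the threshold (-0.26 ± 0.12, adjusted p = 0.122). RET1 rose by 0.69 ± 0.067 at 7% in the mean of the strains (adjusted p = 1.08e-08).

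RPC82, RPC34 and RPC31 form the heterotrimer of pol III that acts in initiation, and they held both the largest and the smallest difference of the class at 7% in the mean of the strains as scaled here. RPC31 read 135 and 109, 173 and 176, and 225 and 217 in strain alpha and 60.6 and 61.1, 103 and 114, and 153 and 154 in strain a. The diploid read 80.5 and 83.8, 102 and 104, and 199 and 209.5, and in all 3 strains the levels were ordered 0%, 3%, 7% with no overlap. Its rise was 1.03 ± 0.061, or 2.05-fold (adjusted p = 3.95e-12). RPC82 read 71.1 and 83.9, 67.7 and 77, and 87.2 and 74 in strain alpha and 58.7 and 60.3, 53.3 and 60.5, and 75.3 and 97.1 in strain a. In the diploid it read 87.3 and 66.6, 59.3 and 77.6, and 78.3 and 83.7, and the 0% and 7% groups overlapped in strain alpha and the diploid. RPC82 did not pass the threshold in the mean of the strains (0.18 ± 0.082, 95% confidence interval 0.0096 to 0.35, adjusted p = 0.0554). As scaled here it rose in strain a alone (0.43 ± 0.14, adjusted p = 0.0133). After quantile normalization the strain a value was -0.14 and did not pass (adjusted p = 0.422). Whether RPC82 differed between the strains was tested only as strain a against strain alpha and the diploid against the haploids, and neither passed (adjusted p = 0.143 and adjusted p = 0.598).

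RPC53 and RPC37 form the heterodimer of pol III that takes part in initiation and termination, and they rose by 0.74 ± 0.072 and 0.70 ± 0.066. RPC37 read 74.8 and 90.1, 77.5 and 64.4, and 104 and 97.2 in strain alpha and 44.3 and 47.6, 68.1 and 70.2, and 105 and 106 in strain a. The diploid gave 44.7 and 42.5, 61 and 59.7, and 99.6 and 89.7. In strain alpha its 3% arrays overlapped the 0% arrays, while in strain a and the diploid they lay above. RPC11, which serves RNA cleavage and termination, rose by 0.94 ± 0.055, and the stalk subunits RPC25 and RPC17 rose by 0.67 ± 0.068 and 0.64 ± 0.079. RPC34 rose by 0.50 ± 0.095, and its arrays differed most between replicates at 3% in strain a, 123 against 79.3.

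**Figure D3:**
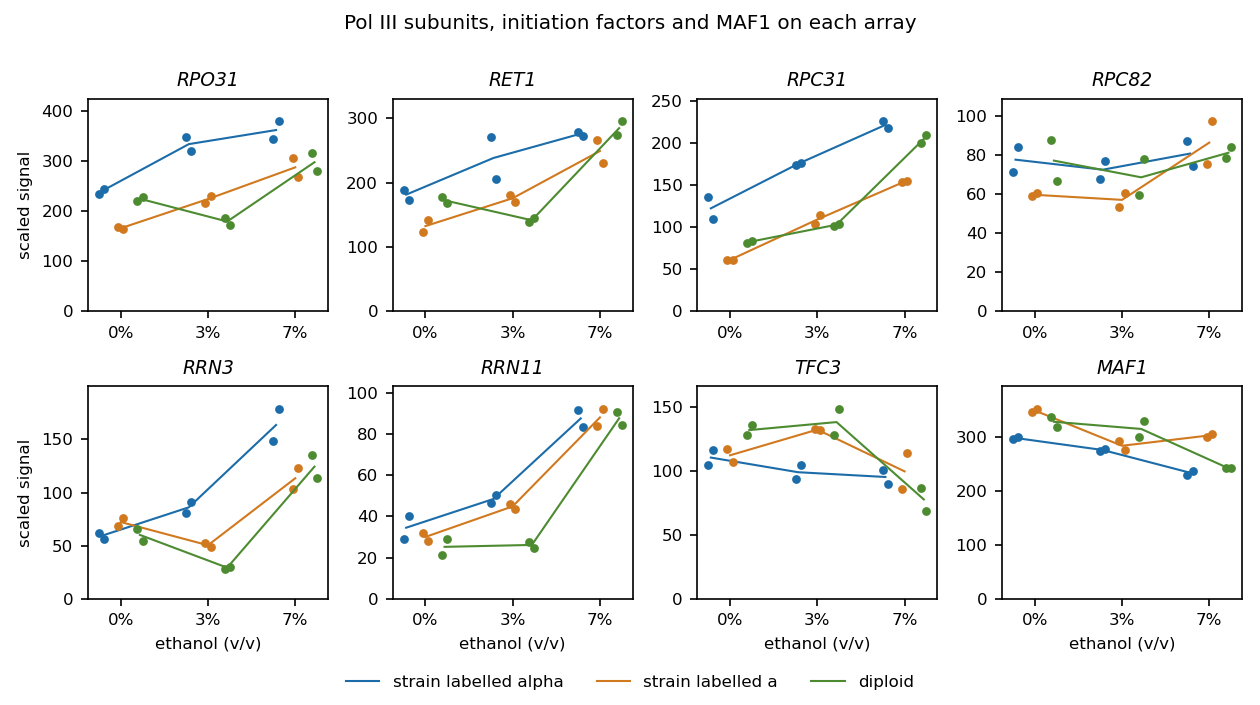
Scaled signal of 4 pol III subunits, RRN3, RRN11, TFC3 and MAF1 on each array (points) against ethanol level, with lines through the group means. RRN3 dips at 3% in strain a and the diploid and not in strain alpha, and MAF1 is lower at 7% than at 0% in strain alpha and the diploid.

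Among the 8 initiation factors of pol I, 6 rose at 7% and 0 fell, beside 48.3% and 22.3% of all genes tested. After quantile normalization 4 rose and 2 fell, and after median centring 6 rose and 1 fell. The counts of all genes after these scalings are given above. RRN3 was the only gene of the 42 that fell at 3% and rose at 7% in the mean of the strains. RRN3 read 61.7 and 56.7, 81.1 and 91, and 148 and 179 in strain alpha and 68.4 and 76, 52.3 and 48.5, and 104 and 123 in strain a. The diploid arrays of RRN3 were 65.8 and 54.4, 28.2 and 30.4, and 135 and 114. At 3% RRN3 rose in strain alpha (0.44 ± 0.13, adjusted p = 0.0144), fell in strain a (-0.41 ± 0.13, adjusted p = 0.0131) and fell in the diploid (-0.74 ± 0.13, adjusted p = 0.000334). With no scaling of the arrays the adjusted p was 0.0769 for the rise in strain alpha and 0.0552 for the fall in strain a. At 7% RRN3 was above its 0% level in each strain, by 1.25 ± 0.13, 0.55 ± 0.13 and 0.88 ± 0.13 in strain alpha, strain a and the diploid. From 3% to 7%, in the mean of the strains as scaled here, it had the largest rise of the 42 genes (1.13 ± 0.073, or 2.19-fold, adjusted p = 4.43e-11). The lower mean at 3% (-0.24 ± 0.073, adjusted p = 0.0108) was 0.015 without the diploid and -0.15 without strain a (adjusted p = 0.21).

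Core factor, which binds the ribosomal DNA promoter next to the start site, is made of RRN6, RRN7 and RRN11. RRN11 had the largest rise of the factors. It read 28.9 and 40, 46.4 and 50.5, and 91.4 and 83.5 in strain alpha and 31.8 and 28.2, 46.1 and 43.5, and 83.9 and 92 in strain a. In the diploid it read 21.4 and 29, 27.4 and 24.8, and 90.8 and 84.3, with 0% and 3% overlapping and 7% far above. Its rise was 1.18 ± 0.074, or 2.27-fold (adjusted p = 1.09e-11), and the value was 1.54 with 1 added before the logarithm and 0.69 with 64. RRN7 rose by 0.91 ± 0.077. RRN6 read 50.6 and 50.3, 50.7 and 41.6, and 52.9 and 53.1 in strain alpha and 40.4 and 42.5, 38.6 and 42.4, and 42.7 and 47.7 in strain a. Its diploid arrays were 48.3 and 35.9, 44.7 and 36.4, and 47.9 and 48.7, where the groups overlapped, while in both haploids the 7% arrays lay just above the rest. RRN6 gave 0.10 ± 0.073 (95% confidence interval -0.052 to 0.25, adjusted p = 0.227) as scaled here and -0.23, past the threshold, after quantile normalization.

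The upstream activating factor, which binds farther from the start site and commits the ribosomal DNA to pol I, is built from RRN5, RRN9, RRN10 and UAF30 with histones. UAF30 read 60.6 and 59.3, 61.5 and 64.8, and 68 and 63.5 in strain alpha and 39.5 and 29.8, 50.4 and 55.4, and 75.7 and 93.6 in strain a. Its diploid arrays read 33.9 and 37.5, 59.7 and 53.2, and 68.4 and 77.4. At 7% strain alpha gave 0.11 ± 0.12 (adjusted p = 0.518) and strain a rose by 0.99 ± 0.12 (adjusted p = 9.64e-07). RRN10 read 65.5 and 58.9, 74.5 and 61.1, and 69.7 and 65.9 in strain alpha and 44.4 and 44.5, 77.1 and 62.7, and 95.8 and 104 in strain a, and 55.5 and 61.9, 66.4 and 72.4, and 73 and 76 in the diploid. As for UAF30, the arrays of strain a separated fully by level while the 3% and 7% arrays of strain alpha overlapped.

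RRN5 read 45.4 and 42, 58.1 and 46.2, and 54.8 and 38.4 in strain alpha and 61.5 and 59.3, 45.5 and 57.6, and 53.5 and 46.2 in strain a. The diploid read 68.7 and 52.1, 57.1 and 66.5, and 66.1 and 49.5. Its 7% arrays overlapped those at 0% in strain alpha and the diploid and lay below them in strain a, and the difference at 7% was -0.070 ± 0.089 (95% confidence interval -0.26 to 0.12, adjusted p = 0.502). RRN9 rose by 0.53 ± 0.12 (adjusted p = 0.000555), and its 0% arrays in strain alpha read 52.4 and 101.

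In TFIIIC, TFC1, TFC6 and TFC8 rose at 7%, TFC3 fell, and TFC4 and TFC7 did not pass. That is 50% higher and 16.7% lower, near the 48.3% and 22.3% of all genes tested. The median was 0.15 against 0.13 over all genes. The TFIIIC counts depend on the scaling, with 1 higher and 3 lower after quantile normalization. They were 2 higher and 3 lower after median centring and 2 higher and 1 lower with no scaling. The counts of all genes under these settings also moved and are given above. TFC6 and TFC3 belong to the part of TFIIIC that binds the B box of transfer RNA genes. TFC6 read 104 and 113, 117 and 117, and 154 and 141 in strain alpha and 65.8 and 88.9, 81.7 and 97.9, and 134 and 127 in strain a, and in the diploid 73.5 and 57, 78.7 and 65.7, and 102 and 110.2. Its 7% arrays lay above the other arrays of each strain, and it rose by 0.55 ± 0.077 (adjusted p = 2.43e-06). TFC3, the largest subunit, read 105 and 116, 93.5 and 105, and 101 and 90.3 in strain alpha and 118 and 107, 133 and 132, and 85.8 and 114 in strain a. In the diploid TFC3 read 128 and 136, 128 and 149, and 87.1 and 68.6, with both 7% arrays far below the rest. TFC3 fell in the diploid (-0.67 ± 0.13, adjusted p = 0.000182) and gave -0.18 ± 0.13 in strain alpha and -0.16 ± 0.13 in strain a, neither past the threshold. The fall in the mean of the strains (-0.34 ± 0.075, adjusted p = 0.00046) did not pass without the diploid (-0.17, adjusted p = 0.109), and the change in the diploid did not differ from that in the haploids past the threshold (adjusted p = 0.0558). TFC8, a subunit of the same part, rose by 0.39 ± 0.081 (adjusted p = 0.000264), and its value was 0.59 with 1 added before the logarithm and 0.19 with 64.

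TFC1, TFC4 and TFC7 form the part of TFIIIC that reaches the A box, and TFC4 is the subunit that recruits TFIIIB. TFC4 read 71 and 73.3, 56.8 and 57.2, and 61 and 53.4 in strain alpha and 71.3 and 79.3, 78.3 and 74, and 74.7 and 85.3 in strain a. The diploid read 72.8 and 69.8, 51.8 and 51.2, and 60.3 and 62.3, with both 3% arrays below the 0% arrays. TFC4 fell in the diploid at 3% (-0.37 ± 0.11, adjusted p = 0.0194) and in strain alpha at 7% (-0.27 ± 0.11, adjusted p = 0.0462). The fall in strain alpha lay near the threshold, and the genes lower there varied in the refits that left out 1 array. Those lower in the diploid at 3% varied with the scaling and with single arrays, as said for RPO31. In strain a the difference of TFC4 at 7% was 0.071 ± 0.11 as scaled here, but -0.47 after quantile normalization and -0.27 after median centring, both past the threshold. TFC7 read 109 and 129, 98.6 and 98.7, and 112 and 104 in strain alpha and 83.2 and 69.8, 84.2 and 80, and 94 and 93.4 in strain a. In the diploid TFC7 read 91.1 and 98.3, 103 and 91.2, and 86.2 and 81.9, and its difference in the mean of the strains was -0.0051 ± 0.065 (95% confidence interval -0.14 to 0.13, adjusted p = 0.948). TFC1 read 109 and 106, 105 and 129, and 134 and 117 in strain alpha and 66.9 and 80.5, 128 and 148, and 116 and 118 in strain a, and 102 and 92.4, 115 and 108, and 116 and 101 in the diploid. The 0% arrays of strain a were the lowest of all 18, and TFC1 rose by 0.30 ± 0.070 (adjusted p = 0.000744).

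TFIIIB consists of BRF1, BDP1 and the TATA-binding protein SPT15, which pol I and pol II use too. BRF1 read 129 and 123, 119.9 and 139, and 139.5 and 149.8 in strain alpha and 63.3 and 60.8, 100.1 and 129, and 119.8 and 146 in strain a. The diploid read 80.9 and 73.5, 102 and 104, and 98 and 100.3. BRF1 rose in strain a by 0.93 ± 0.12 and in the diploid by 0.31 ± 0.12, and strain alpha, whose 0% arrays lay above the 7% arrays of the diploid, gave 0.18 ± 0.12 (adjusted p = 0.246). BDP1 read 39.6 and 39.3, 37.2 and 33, and 30 and 25.1 in strain alpha and 26.5 and 26.9, 26.6 and 67.9, and 31.2 and 42.7 in strain a. In the diploid BDP1 read 37.6 and 19.2, 21.5 and 25.6, and 28.2 and 22.9. The 3% arrays of strain a and the 0% arrays of the diploid disagreed, and in strain alpha the 7% arrays lay below the rest. The difference of BDP1 in the mean of the strains was -0.039 ± 0.13 (95% confidence interval -0.31 to 0.23, adjusted p = 0.799).

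SPT15 read 682 and 687, 757 and 792, and 813 and 883 in strain alpha and 541 and 519, 805 and 608, and 743 and 744 in strain a. In the diploid it read 551 and 584, 702 and 597, and 957 and 769.7, and its 0% and 7% groups did not overlap within any strain. SPT15 rose by 0.45 ± 0.066 (adjusted p = 3.65e-06). The array also carries control probe sets along the SPT15 transcript, which were not part of the fit. At 7% against 0% they gave 0.32 at the 3′ end, 0.38 in the middle and 0.59 at the 5′ end in the mean of the strains, and in strain alpha 0.020, 0.23 and 0.15, beside 0.30 from the SPT15 probe set itself.

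MAF1, the repressor of pol III, moved against most of the machinery. It read 297 and 299.6, 273 and 279, and 230.3 and 237 in strain alpha and 347 and 352, 292 and 275, and 299.6 and 306 in strain a. In the diploid MAF1 read 338 and 319, 300.0 and 329.8, and 242 and 242. The 7% arrays lay below the 0% arrays in all 3 strains. MAF1 fell in the mean of the strains at 3% (-0.15 ± 0.049, adjusted p = 0.0159) and at 7% (-0.31 ± 0.049, adjusted p = 9.23e-06). The fall at 3% did not pass with no scaling (adjusted p = 0.218) or without strain a (adjusted p = 0.337). Within strains it fell at 7% in strain alpha (adjusted p = 0.00311) and the diploid (adjusted p = 0.000306), and in strain a the difference of -0.20 ± 0.085 missed the threshold (adjusted p = 0.0507). In the mean of the strains MAF1 also fell from 3% to 7% (-0.16 ± 0.049, adjusted p = 0.00763), but not past the threshold without the diploid (-0.067, adjusted p = 0.395) or without strain alpha (-0.13, adjusted p = 0.104). MAF1 fell in both steps in none of the 3 strains (0 of 3). From 0% to 3% it fell in strain a (-0.29 ± 0.085) and gave -0.11 ± 0.085 in strain alpha and -0.058 ± 0.085 in the diploid, and from 3% to 7% it fell in the diploid (-0.36 ± 0.085) and gave -0.22 ± 0.085 in strain alpha and 0.090 ± 0.085 in strain a.

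Between 3% and 7% ethanol, 31 of the 42 genes rose and 2 fell (TFC3 and MAF1) in the mean of the strains, with a background of 38% higher and 18.3% lower and a median of 0.36 against 0.081. In both steps 25 genes rose, among them all 7 pol I subunits and 7 of the 10 pol III subunits, and 18.2% of all genes tested did. After quantile normalization 17 genes rose in both steps, against 12% of all genes, after median centring 16 against 10.2%, and with no scaling 15 against 9.79%, with 3, 5 and 4 of the 10 pol III subunits. Another 5 rose in the second step alone (RET1, RPC34, RPC82, RRN9 and TFC6) and 4 in the first alone (RPB10, TFC1, TFC8 and BRF1). RRN3 fell in the first step and rose in the second. Without the diploid, 20 in place of 31 rose between 3% and 7%, and without strain a, 19 in place of 29 rose between 0% and 3%. These refits use fewer arrays, and the shares of all genes in them are not given here. The drops are therefore not read as particular to the 42 genes.

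At 3% ethanol 22 of the 42 genes rose and 0 fell in strain alpha (background 12.6% higher and 12.6% lower), 28 rose and 2 fell in strain a (background 31.5% and 12%), and 4 rose and 3 fell in the diploid (background 12.4% and 7.96%). Of the 7 pol I subunits 7 rose in strain alpha, 6 in strain a and 0 in the diploid, with medians of 0.66, 0.78 and 0.087. Pol III subunits rose in 6, 7 and 1 of 10 cases in the same order. The genes that rose in the diploid at 3% were RPB5, RPC37, UAF30 and BRF1, and RPO31, RRN3 and TFC4 fell. The diploid count depends on single arrays: without the first array at 0% 1 gene rose, and without either array at 3% 2 did. Leaving out any of these 3 arrays, or the second array at 0%, left 1 gene lower.

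At 7% ethanol strain alpha had 25 genes higher and 2 lower than at 0% (background 26.9% and 19.9%), strain a had 34 higher and 0 lower (background 48.4% and 15.1%), and the diploid had 30 higher and 2 lower (background 36.5% and 20%). Counted per gene, 36 of the 42 had a positive difference in all 3 strains and 23 rose in all 3, and the shares of all genes tested were 41.9% and 19.3%. The 36 became 30, 32 and 32 and the 23 became 18, 16 and 16 after quantile normalization, median centring and no scaling, where the shares of all genes were 32.8%, 27.7% and 31.8%, and 14.9%, 12.3% and 10.5%. The pol I subunit median was 0.91 in strain alpha, 1.39 in strain a and 1.16 in the diploid, and that of the pol III subunits was 0.57, 0.83 and 0.70. From 3% to 7% strain alpha had 9 genes higher and 0 lower (background 16.6% and 10.1%), strain a 23 higher and 1 lower (background 27.9% and 10%) and the diploid 28 higher and 2 lower (background 27.3% and 16.4%). Without the first 7% array of strain alpha its 9 became 2, without the second 5, and without its second 3% array 3.

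**Figure D4:**
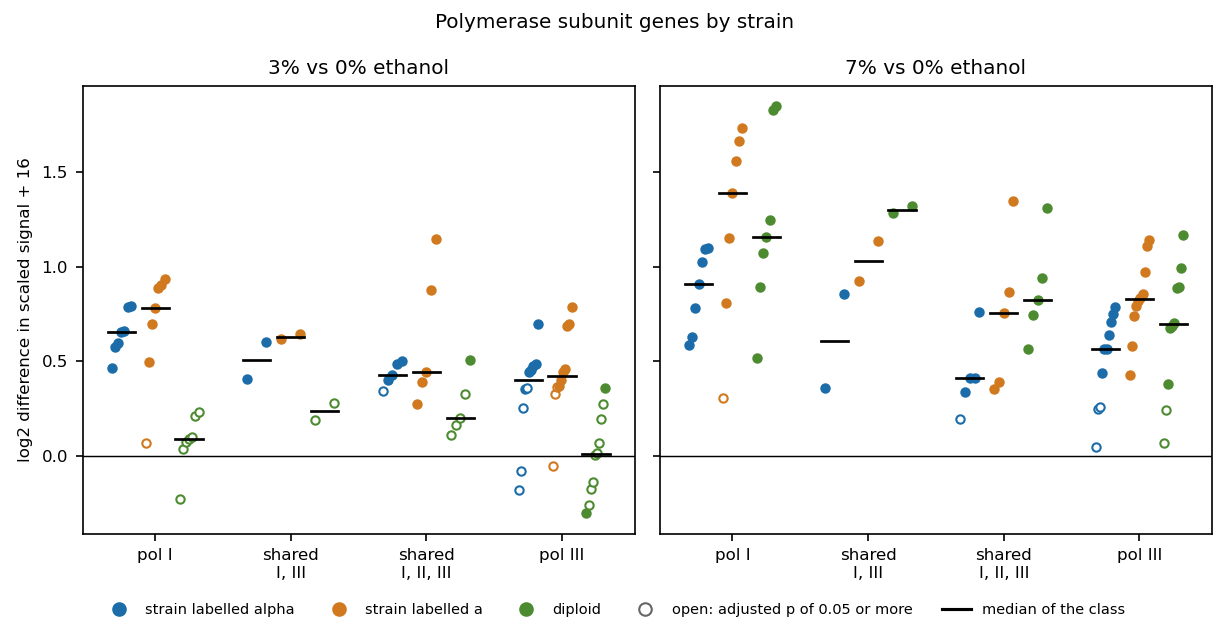
Log2 differences of the 24 subunit genes at 3% (left) and 7% (right) against 0% ethanol in each strain, with a line at the median of each class. At 3% the diploid pol I points lie around 0, with a median of 0.087, and at 7% their median is 1.16.

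The smaller change of the diploid at 3% was tested as a difference of changes, the diploid minus the mean of the haploids. It passed the threshold for 12 of the 42 genes, all lower in the diploid, against a background of 4.96% lower and 4.01% higher. These were 6 of the 7 pol I subunits, RPC19, the pol III subunits RPO31, RET1, RPC53 and RPC11, and RRN3. The difference was -1.07 ± 0.12 for RPA135 (adjusted p = 5.94e-06), -0.72 ± 0.11 for RPA190 (adjusted p = 0.000304), -0.73 ± 0.12 for RPO31 (adjusted p = 0.000458) and -0.76 ± 0.15 for RRN3 (adjusted p = 0.00308). The count was 12 after quantile normalization, 11 after median centring and 4 with no scaling, where 2 of the 7 pol I subunits passed.

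For the change at 7% the diploid exceeded the haploids in 6 genes and was below them in 0, against a background of 4.77% and 4.44%. The 6 were RPC40 (0.53 ± 0.12, adjusted p = 0.00879), RPA43 (0.56 ± 0.14, adjusted p = 0.0158), RPC19 (0.43 ± 0.11, adjusted p = 0.0223), RPO26 (0.46 ± 0.13, adjusted p = 0.0243), RPA12 and RPC10. This count was 0 with no scaling. It was 1 without the second diploid array at 7%, 2 without the first diploid array at 0% and 3 without the first strain alpha array at 7%.

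Between the haploids, the change at 3% was larger in strain a for RPB5 (0.65 ± 0.13, adjusted p = 0.00199), BRF1 (0.70 ± 0.17, adjusted p = 0.00896), RPC37 (0.64 ± 0.16, adjusted p = 0.0106) and TFC1 (0.68 ± 0.17, adjusted p = 0.0106). It was smaller for RRN3 (-0.85 ± 0.18, adjusted p = 0.00306) and RPA14, which makes 4 genes higher and 2 lower against a background of 15.3% and 3.6%. The counts were 1 higher and 5 lower after quantile normalization, 3 and 5 after median centring, and 1 and 1 with no scaling, and for all genes 818 and 193 became 349 and 273, 319 and 593, and 312 and 41. At 7% it was larger in strain a for 15 genes and smaller for RRN3 (-0.70 ± 0.18, adjusted p = 0.00502), against a background of 30.5% and 7.4% and a median of 0.21 over all genes. The leading genes were RPC40 (0.78 ± 0.14, adjusted p = 0.000404), UAF30 (0.89 ± 0.18, adjusted p = 0.000806), RRN10 (0.83 ± 0.17, adjusted p = 0.000882) and RPA190 (0.61 ± 0.13, adjusted p = 0.00149). The counts became 4 higher and 4 lower after quantile normalization, 5 and 6 after median centring, and 15 and 0 with no scaling, and for all genes 1637 and 397 became 548 and 556, 596 and 1115, and 1342 and 105. Among pol I subunits, 5 were higher as scaled here, 1 was higher after quantile normalization, and after median centring 0 were higher and 2 lower.

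At 0% ethanol 25 of the 42 genes were lower in strain a than in strain alpha and MAF1 was higher (0.22 ± 0.085, adjusted p = 0.0393), against a background of 34.7% lower and 15.8% higher. RPA43 (-1.26 ± 0.11), RPA49 (-1.23 ± 0.10), RPA34 (-1.17 ± 0.12), RPA135 (-1.12 ± 0.096) and RPA190 (-1.06 ± 0.092) each stood more than 1 log2 unit below strain alpha, while RPA14 (0.25 ± 0.13, adjusted p = 0.128) and RPA12 (-0.070 ± 0.091, adjusted p = 0.548) did not pass the threshold. Of the pol III subunits 8 of 10 were lower, RPC31 by the most (-0.84 ± 0.10, adjusted p = 1.85e-06). The pol I count was 5 of 7 lower under each scaling tried, with 1 higher after median centring, and that of pol III was 6, 6 and 5 of 10 after quantile normalization, median centring and no scaling. Counts of all genes were not taken under these scalings in this comparison.

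At 3% ethanol 18 genes were lower and 2 (TFC3 and TFC4) higher in strain a (background 17.6% and 19.1%), and at 7% 12 were lower and 5 higher (background 17.2% and 28.7%). The same 5 pol I subunits that were lower at 0% were lower at 7%, RPA43 by the most (-0.73 ± 0.11, adjusted p = 2.91e-05), and RPB10, RPC25, RRN10, TFC4 and MAF1 were higher. The 17 genes past the threshold at 7% became 11 without the second strain alpha array at that level.

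The diploid differed from the mean of the haploids mostly at 3%. At 0% 2 genes were higher (RPA190 and RPA135) and 5 lower (RPA43, RPC19, RPC37, RRN7 and TFC6), against a background of 7.42% and 10.6%. At 3% 25 were lower and 0 higher (background 18.7% and 13.2%), among them 7 of 7 pol I subunits and 7 of 10 pol III subunits. RPA43 had the lowest value (-0.90 ± 0.098, adjusted p = 4.92e-07), followed by RRN3 (-0.86 ± 0.11, adjusted p = 3.58e-06). At 7% 5 were higher (RPA49, RPA34, RPA12, RPC40 and RPO26) and 2 lower (TFC6 and BRF1), against a background of 8.6% and 13.6%. Without the first diploid array at 0%, 4 genes in place of 7 passed at that level, and without the first or the second diploid array at 7%, 4 or 3 in place of 7 passed there.

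**Figure D5:**
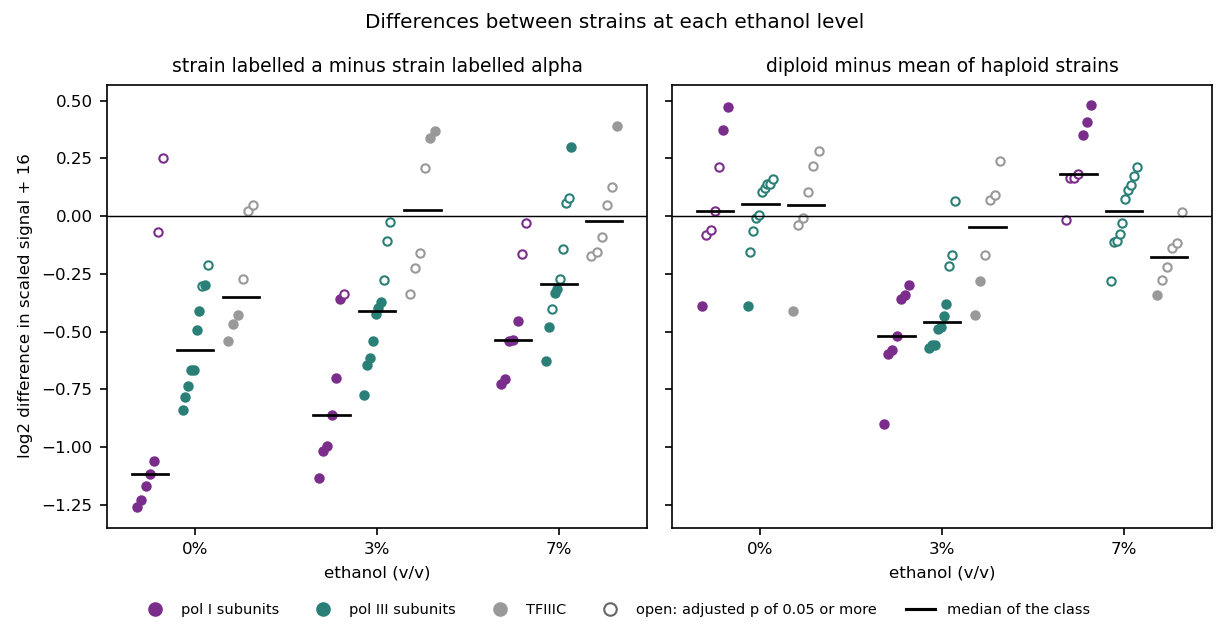
Log2 differences between strains at each ethanol level for the pol I subunits, the pol III subunits and TFIIIC, with a line at the median of each class. Strain a lies below strain alpha for pol I at every level, with medians of -1.12, -0.86 and -0.54 from 0% to 7%, and the diploid lies below the haploids at 3%, with a median of -0.52.

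Genes that assemble the polymerases or handle their products were read beside the 42, and the background of this comparison stands above with the first count. Of 11 genes for assembly and import of polymerases, 10 rose at 7% in the mean of the strains, led by GPN3, the gene of a GTPase (1.16 ± 0.059, adjusted p = 4.38e-13), and RTP1, which acts in the nuclear import of pol II (1.03 ± 0.072, adjusted p = 6.39e-11). Of 11 protein subunits of RNase P and RNase MRP, which process transfer and ribosomal RNA precursors, 9 rose, led by RPP1 (1.09 ± 0.078) and POP3 (0.87 ± 0.067). Of 21 genes for maturation and export of transfer RNA 14 rose and 1 fell. TRM82, part of a methyltransferase, rose by 1.38 ± 0.070, LHP1, which binds new pol III transcripts, by 1.24 ± 0.067, and the splicing endonuclease gene SEN54 gave -0.21 ± 0.085 (adjusted p = 0.0333).

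Of 5 factors of ribosomal DNA and 5S genes, 2 rose and 2 fell at 7% in the mean of the strains, beside 48.3% and 22.3% of all genes tested. HMO1, a protein that coats active ribosomal DNA, fell (-0.38 ± 0.053, adjusted p = 1.88e-06), as did REB1, which binds next to pol I terminators (-0.47 ± 0.074, adjusted p = 1.08e-05). FOB1, the replication fork barrier protein, rose by 0.39 ± 0.090, and PZF1, which is TFIIIA and starts 5S transcription, by 0.24 ± 0.073. Among 16 regulators 9 rose and 4 fell, which is 56.25% and 25%, near the shares of all genes tested. TOD6, a repressor of ribosome biogenesis genes, had the largest rise of the regulators, 1.72 ± 0.077, or 3.3-fold (adjusted p = 4.55e-14). MCK1, a kinase that acts on pol III, fell (-0.61 ± 0.051, adjusted p = 1.44e-09), as did the activator SFP1 (-0.31 ± 0.064), the kinase TOR1 (-0.22 ± 0.063) and CKB1, a regulatory subunit of casein kinase (-0.15 ± 0.064, adjusted p = 0.0425).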

How the data were processed

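The deposited values are 1 linear intensity per probe set and array. Per the submitters' processing notes they were made with GCOS, the Affymetrix array software, with a version and settings not stated in these sources, so the background correction and summary behind each intensity are unknown. The arrays carry 10928 probe sets: 5498 were matched to 1 S. cerevisiae gene through the platform annotation, 1746 to genes of another yeast, 166 are controls and 3517 have no gene name here.

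Each array was multiplied so that its S. cerevisiae probe sets had a common 2% trimmed mean (factors 0.84 to 1.19), 16 was added and log2 was taken. The brightest probe set stood for a gene with several. A gene was tested if at least 2 arrays exceeded the background limit, the 95th percentile of the other yeast's probe sets on that array (4.6 to 7.58), which kept 5363 of 5449 genes. limma 3.58.1 in R 4.3.3 (with statmod 1.5.0) fitted a mean for each of the 9 groups, with 9 residual degrees of freedom, moderated variances with an intensity trend, two-sided tests in 22 comparisons, and Benjamini-Hochberg adjustment within each comparison over all genes tested, with a threshold of 0.05. Control probe sets were described without a test.

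The members and all gene lists were chosen with earlier results of these data known. Values on every array are given for the 2 largest subunits of each polymerase, RRN3, BRF1, SPT15, MAF1, the largest and smallest 7% difference of each class, members that fell or did not pass, and the 4 leading genes of each difference between strains; of the other lists, the 2 leading genes and those that fell are named. Alternatives were the scaling, the constant added, the filter, the probe set rule, a replicate block, the variance trend, and leaving out each array or strain. Promoter motifs and sequences were not analysed here.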

Additional observations from a re-analysis of the deposited data

Results flagged for a closer look

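Each result here is a difference between strains in the change from 0% ethanol, tested in the fit itself, whose adjusted p (limma) was under 0.05. All values are differences of log2 changes.

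The change at 3% was smaller in the diploid than in the mean of the haploids for 12 genes. For the polymerase subunits the differences were -1.07 for RPA135, -0.72 for RPA190, -0.73 for RPO31, -0.54 for RPA12, -0.55 for RPC11, -0.62 for RET1, -0.51 for RPA49, -0.43 for RPC19, -0.56 for RPC53, -0.51 for RPA43 and -0.52 for RPA34, and for RRN3, which links pol I to its promoter, -0.76. At 7% the diploid had the larger change for 6 subunit genes, by 0.53 for RPC40, 0.56 for RPA43, 0.43 for RPC19, 0.46 for RPO26, 0.39 for RPA12 and 0.36 for RPC10. The signal of RPA43 at 0% in the diploid was 31.1 and 28.3, against 26.6 and 19.1 in strain a and 78.7 and 74.8 in strain alpha, and the part of these dim values in its difference was not tested.

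Between the haploids, strain a minus strain alpha, the change at 3% differed by 0.65 for RPB5, -0.85 for RRN3, 0.70 for BRF1, 0.64 for RPC37, 0.68 for TFC1 and -0.59 for RPA14. At 7% it differed by 0.78 for RPC40, 0.61 for RPA190, 0.59 for RPB5, 0.72 for RPC37, 0.57 for RPA135, 0.63 for RPA34, 0.53 for RPA49, 0.59 for RPC25, 0.67 for RPB10, 0.53 for RPA43, 0.40 for RPC11 and 0.34 for RPC10 among subunits. Among factors it differed by 0.89 for UAF30, 0.83 for RRN10, 0.75 for BRF1 and -0.70 for RRN3. All 15 positive differences at 7% stand beside a median of 0.21 over all genes tested, which was -0.011 after quantile normalization and -0.068 after median centring.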

How the results depend on the processing

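The labels give the groups the same replicate numbers and do not say whether a number marks a shared culture, day or batch. Over 36 pairs of groups, the correlation of deviations between same-numbered arrays ran from -0.25 to 0.18. It was over 0.1 in 11 of 36. These values do not settle whether some groups were paired. The replicate block moved the genes higher at 3% in the diploid from 4 to 7 and those lower at 7% in strain a from 0 to 1. Of 924 gene values it left 912 with the same call, made 11 pass and 1 no longer pass.

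In the mean of the strains, the genes lower at 3% went from 3 to 6 after quantile normalization, 1 with no scaling, and 1 without the diploid or without strain a, and those higher went from 29 to 19 without strain a. At 7% the genes lower went from 2 to 7 after quantile normalization, 5 after median centring and 1 without the diploid. Between 3% and 7% the genes higher went from 31 to 20 without the diploid, and those lower from 2 to 6 after quantile normalization, 0 without the diploid and 1 without strain alpha. The shares of all genes in the refits without a strain are not given here.

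Within strain alpha, 14 in place of 22 were higher at 3% with no scaling, and 1 was lower without the variance trend. From 3% to 7% strain alpha had 4 higher after median centring and 2 with no scaling in place of 9, and 1 lower after median centring, after quantile normalization and without the trend. In strain a at 3%, 18 in place of 28 were higher after median centring, and 0 or 6 in place of 2 were lower with no scaling or after quantile normalization. In strain a at 7% the genes lower, 0 in the report, became 6 after quantile normalization, 4 after median centring, and 1 each with the strict filter, no filter, 64 added and no trend. From 3% to 7% strain a had 13, 11 and 14 higher in place of 23 after median centring, no scaling and quantile normalization, and 2, 0 and 2 lower in place of 1. In the diploid at 3%, 0 and 1 in place of 4 were higher with no scaling and after quantile normalization, and 1 in place of 3 was lower with no scaling. In the diploid at 7%, 4 in place of 2 were lower after median centring and after quantile normalization.

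With no scaling, strain a against strain alpha had 17, 11 and 10 genes past the threshold at 0%, 3% and 7% in place of 26, 20 and 17, and the diploid against the haploids had 2 at 0% and 3 at 7% in place of 7 and 7. The differences of changes then passed for 4 in place of 12 (3%, diploid), 2 in place of 6 (3%, haploids) and 0 in place of 6 (7%, diploid). After quantile normalization 8 in place of 16 passed at 7% between the haploids. Of these, only the differences of changes between the haploids have counts of all genes, given above. The other moves cannot be set beside those of all genes.

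Single genes changed sign after quantile normalization: RRN6 to -0.23 and, in strain a, -0.52 at 7%, with -0.50 for its difference between the haploids; TFC4 in strain a to -0.27 at 3% and -0.47 at 7%; TFC7 to -0.28 in strain a at 7% and -0.15 from 3% to 7% in the mean of the strains; and RPC82 in strain a to -0.14 at 7%. Median centring gave TFC4 in strain a -0.27 at 7%. Without the diploid, RRN3 at 3% went to 0.015 and RPO26 from 3% to 7% to -0.046. The cause of these changes was not tested.

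Leaving out 1 array in turn, the mean of the strains kept 28 to 31 genes higher at 3%, 34 to 35 at 7% and 29 to 32 from 3% to 7%. Strain alpha ran from 0 to 1 lower at 3%, 1 to 2 lower at 7%, and 2 to 11 higher and 0 to 1 lower from 3% to 7%. Strain a ran from 0 to 2 lower at 3%, 0 to 1 lower at 7% and 0 to 1 lower from 3% to 7%. The diploid ran from 1 to 5 higher and 1 to 3 lower at 3%. Against the haploids the diploid had 4 to 7 genes past at 0% and 3 to 7 at 7%, and strain a against strain alpha had 11 to 19 at 7%. The differences of changes ran from 8 to 12 and from 1 to 7 for the diploid at 3% and 7%, and from 4 to 8 and from 11 to 17 for the haploids. The array left alone in its group was assumed to vary like the others. Over these refits 16117 gene values kept their call, 372 no longer passed, 143 newly passed and 0 reversed. Precision rests on 2 arrays per group, whose pooled SD was 0.131 on the log2 scale, and GCOS settings that are not known.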

Other observations

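The array carries control probe sets for the ribosomal RNAs that pol I makes and for actin, read outside the fit and without a test. In the mean of the strains, the 7% against 0% difference was -0.19, -0.44 and -0.77 for the 5′, middle and 3′ probe sets of 18S RNA. For 25S RNA it was -0.24, -0.38 and 0.030 in the same order. The 5.8S probe set gave 0.64, with signals of 757 to 1409 at 0%, 446 to 1611 at 3% and 1013 to 1972 at 7%. The 18S 3′ probe set ranged from 148 to 1461 at 3%. The ACT1 probe sets moved by -0.0047, 0.019 and 0.037 from the 5′ to the 3′ end. The ribosomal RNA differences at 7% were uneven over the strains in size, and in sign for the 25S probe sets and the 18S 5′ one. The 5.8S probe set gave 0.66 in strain alpha, 0.40 in strain a and 0.85 in the diploid. In strain alpha, strain a and the diploid the 25S 5′ probe set gave -0.12, -0.74 and 0.15. The 25S middle one gave -0.45, -0.82 and 0.14, and the 3′ one 0.11, -0.10 and 0.080. For 18S the 5′ probe set gave 0.035, -0.57 and -0.040. Its middle one gave -0.25, -0.81 and -0.26, and the 3′ one -0.44, -1.39 and -0.48. Whether these signals follow the amount of ribosomal RNA was not tested.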
